A study of Mus musculus with 6 samples.

Results

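The gene Sfi1 on mouse chromosome 11 held the regions of highest total signal in CUT&RUN libraries of the transcription factors GATA4 and GATA6, and all regions called in it or within 20 kb of it are described here. Sfi1 (ENSMUSG00000023764.18) lies on the minus strand of GRCm38 (mm10) at chr11:3131850-3193463, a length of 61614 bp, of which 12.3% is exon in any of its 20 annotated transcripts. With 20 kb on either side the window spanned chr11:3111850-3213463, or 101614 bp. It held 146 of the 278109 regions called in the 6 libraries together. The 3 GATA4 libraries had 26, 23 and 24 regions there, out of 49597, 46646 and 48397, and the 3 GATA6 libraries had 22, 26 and 25, out of 46484, 42446 and 44539. Of the lists that the authors combined over the replicates of a factor, the GATA4 list had 16 of its 8282 regions in the window and the GATA6 list 18 of its 5170. The gene was chosen by the total signal of its regions, which led these lists, so its signal values and ranks are a description and carry no test.

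All 6 libraries were made from XEN cells, stem cell lines of the extraembryonic endoderm, of the 3F2 genotype. The 3F cells carry a doxycycline-inducible reprogramming cassette (Col1a1 TetO-OKSmCh), the R26 M2rtTA transactivator and an Oct4-GFP reporter, alleles shared by both groups. The groups differed in the antibody, against GATA4 or GATA6, with 3 libraries each and 500000 cells per library. No IgG or untreated library was analysed here, so the background of the assay at Sfi1 was not measured, and since nothing says that the replicates came from separate cultures, their spread may be technical.

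GATA4 and GATA6 are zinc finger factors that specify the primitive endoderm, from which XEN cells derive, and they bind DNA at the motif WGATAR (the letters GATA with A or T before them and A or G after them, on either strand). In CUT&RUN an antibody bound to the factor directs a nuclease to cut the DNA around it, and the released fragments are sequenced. The caller used here, SEACR, gives each region a total signal, which is the coverage summed over the region and so grows with its width, and a maximum signal, the highest coverage in it. Neither was scaled for sequencing depth, so both are compared by rank or ratio within a list. Sfi1 encodes a centrin-binding protein of the centriole, known from its yeast counterpart for a role in duplication of the spindle pole body. The locus lies near the start of the assembled chromosome 11, whose first base of sequence is at position 3100001, 31849 bp from the gene. Next to its 3′ end lies Pisd-ps1, a pseudogene of the phosphatidylserine decarboxylase gene.

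Sequences are shown for the pair of sites with the highest maxima, where those of all 6 libraries lay close together. The highest maximum of the window lay between bases 3163824 and 3163858 in every library, a span of 35 bp, in an intron of Sfi1. The 151 bases around it, at chr11:3163766-3163916 on the plus strand, held no WGATAR word, but the shorter word GATAA at bases 3163832 to 3163836, in capitals in the first line. The second line is the aligned stretch of an unplaced scaffold of the same assembly (bases 21038 to 21187, minus strand), with the 2 bases that differ in capitals. A further base of chromosome 11 had no partner there.
Sfi1 highest summit: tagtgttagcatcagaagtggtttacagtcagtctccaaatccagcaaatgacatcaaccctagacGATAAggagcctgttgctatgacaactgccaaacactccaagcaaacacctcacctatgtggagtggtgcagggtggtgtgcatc
Scaffold counterpart: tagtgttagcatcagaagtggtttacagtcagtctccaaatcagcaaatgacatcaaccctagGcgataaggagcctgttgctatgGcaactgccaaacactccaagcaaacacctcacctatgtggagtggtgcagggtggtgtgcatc

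The next highest maxima lay between bases 3159788 and 3159854, a span of 67 bp, also outside exons. The 151 bases at chr11:3159746-3159896 held 2 WGATAR words, in capitals: TGATAG at 3159763 to 3159768 and TTATCA, which reads TGATAA on the other strand, at 3159815 to 3159820. The scaffold carried all 151 bases unchanged, at its bases 25047 to 25197 on the minus strand.
Sfi1 next summit: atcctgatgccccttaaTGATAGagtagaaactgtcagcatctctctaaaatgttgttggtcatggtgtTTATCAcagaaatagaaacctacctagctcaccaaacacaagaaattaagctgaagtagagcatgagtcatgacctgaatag

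The called regions covered most of the gene in every library. Of the gene's length 77.5%, 74.5% and 77.1% was covered in the GATA4 libraries and 77.8%, 77.4% and 76.5% in the GATA6 libraries. Merged across libraries, the 146 regions formed 18 stretches, of which 14 were called in all 6 libraries, 3 in 5 and 1 in 2. Over the whole lists 1.88% of merged regions were called in all 6. The stretch found in 2 libraries, GATA4 replicate 1 and GATA6 replicate 1, lay at 3201823 to 3202523, over the start of the neighbouring gene Eif4enif1, which encodes a transporter of the translation factor eIF4E.

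**Figure D1:**
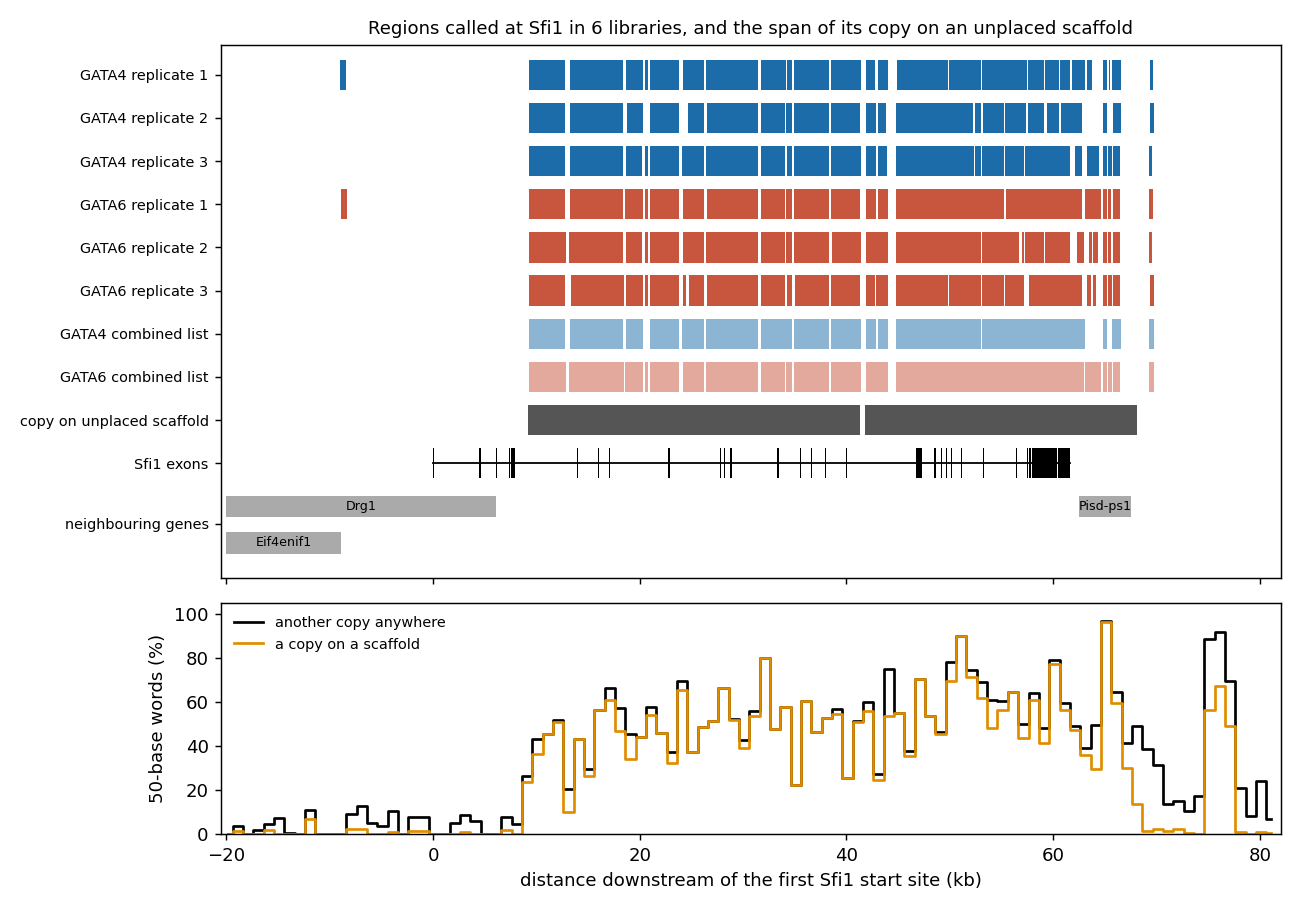
Upper panel, the regions called in each of the 6 libraries (blue GATA4, red GATA6) and in both combined lists, with the span of the scaffold copy (grey), the exons of Sfi1 and parts of 3 neighbouring genes, against distance downstream of the first Sfi1 start site in kb; lower panel, the share of 50-base words in each 1 kb bin with another exact copy in the assembly (black) or a copy on a scaffold (orange). Regions cover 81.8% to 88.2% of the span of the copy in the 6 libraries and none of Sfi1 between the copy and its start site.

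Total signal was where Sfi1 stood apart. The region of highest total signal and the next 4 of every list lay in the window, as did 10, 9 and 10 of the top 10 of the GATA4 lists and all of the top 10 of each GATA6 list. The highest total in the window was 64431, 53193 and 74711 in the GATA4 libraries, against 19838, 19584 and 17010 for the highest region elsewhere. In the GATA6 libraries it was 100130, 61024 and 63050, against 27828, 13984 and 14648 elsewhere. The widest region of every list was also here, at 5096 to 10436 bp, and the median width in the window was 1461 to 1848 bp, against 400 to 549 bp over the lists.

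Measures that do not grow with width gave the window a lower place. By maximum signal 1, 1 and 2 regions of the window were in the top 10 of the GATA4 lists and 2 in the top 10 of each GATA6 list. Its best rank by this measure was 3 or 4, and the highest maximum of the lists, 197 to 276, lay elsewhere. By mean signal per base pair no region of the window was in a top 10, and the best rank was 31, 45 and 17 in the GATA4 lists and 13, 28 and 14 in the GATA6 lists. Summed over the window, mean signal per covered base pair was 9.25, 7.93 and 11.4 in the GATA4 libraries and 11.9, 9.03 and 10.3 in the GATA6 libraries. Regions outside averaged 2.10 to 2.32, a ratio of 3.48 to 5.38. Coverage was thus high over most of the gene in all libraries, and the top ranks by total signal rested on width as well as on height.

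**Figure D2:**
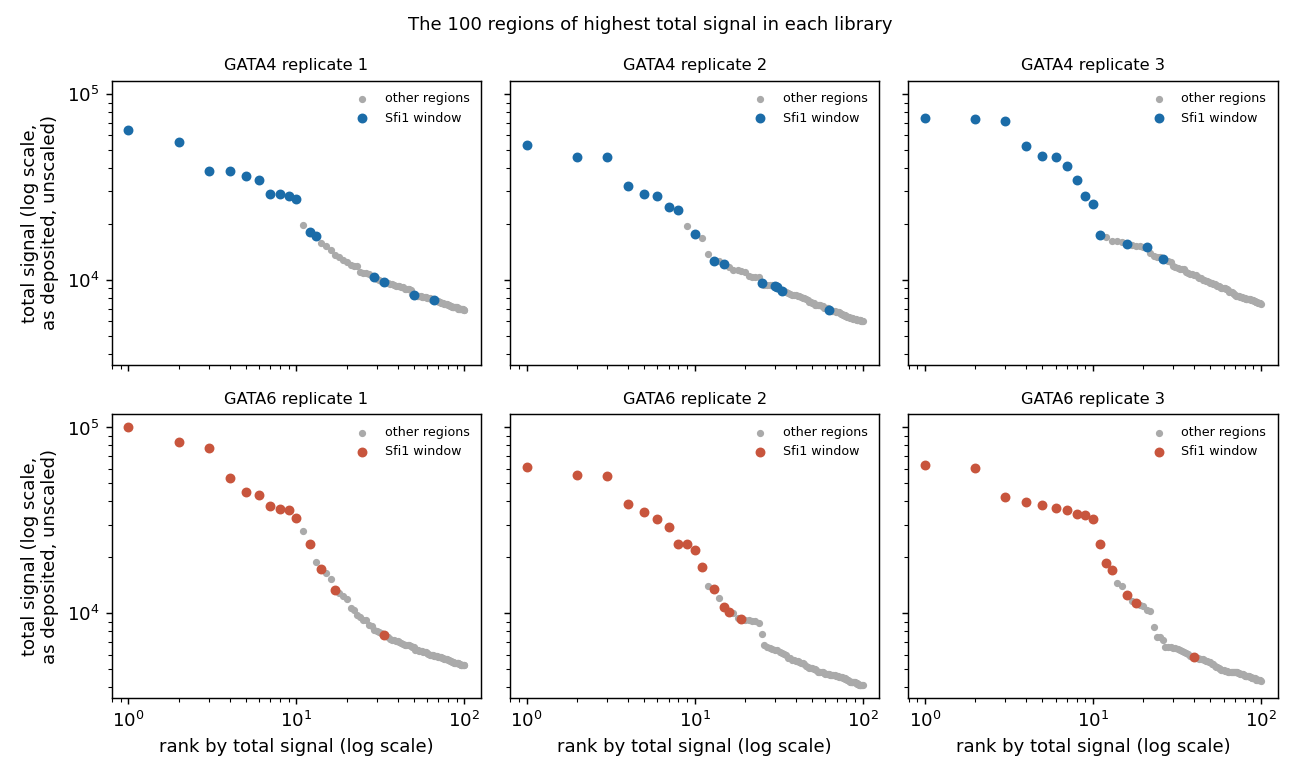
Total signal (as deposited, log axis) of the 100 highest regions of each library against rank (log axis), with regions of the Sfi1 window in colour and all others in grey. The window fills ranks 1 to 8 in every library, and the first region outside it is at rank 9 in GATA4 replicate 2 and at rank 11 to 14 in the others.

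The region that holds the highest maximum had nearly the same width, 4991 to 5022 bp, in all libraries. Its maximum signal was 92, 104 and 108 in the GATA4 libraries and 103, 102 and 109 in the GATA6 libraries, which ranked 3 or 4 in every list. Over the median maximum of its list this was 23, 26 and 27 against 25.8, 25.5 and 27.2, so the groups overlapped. Its total was 64431, 53193 and 71193 for GATA4 and 83316, 61024 and 60834 for GATA6, and it ranked 1 to 3 in every list. The region with the next highest maxima reached 45, 34 and 61 for GATA4 and 52, 46 and 61 for GATA6, and ranked 7 to 37 by maximum. The remaining regions were lower and flatter, with a median maximum over the window of 19, 15 and 20 for GATA4 and 22.5, 15.5 and 21 for GATA6.

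The other wide regions were compared by their mean signal per base pair over that of all regions outside the window in the same list, a ratio in which depth cancels to first order. The region at 3174981 to 3180290 had a ratio of 4.73, 3.94 and 6.13 in the GATA4 libraries and 6.86, 5.05 and 5.62 in the GATA6 libraries, and ranked 1 to 3 by total signal. That at 3155172 to 3158530 had 4.998, 4.20 and 6.74, and 7.25, 5.49 and 5.88, and ranked 3 or 4. In both, the ratios of the factors overlapped, with GATA4 replicate 2 lowest and GATA6 replicate 1 highest. The region at 3180611 to 3184189, the last before the 5′ part without regions, had 4.32, 3.69 and 5.72, and 5.80, 4.69 and 4.87. The regions at 3152097 to 3154952, 3169623 to 3172450 and 3173191 to 3174850 had ratios between 3.67 and 6.90. The stretch at 3167251 to 3169377, split into 2 regions in GATA6 replicate 3, had 3.91 to 7.23 and a best rank of 9 to 12. The stretch at 3149477 to 3151606, 1 or 2 regions per library over the pseudogene Gm11400, had 3.05 to 4.90 and a best rank of 13 to 30. Around the 3′ end the stretch from 3130371 to 3148656 was broken into 37 regions over the 6 libraries. It formed a single region of 18128 bp in the GATA6 combined list. Its ratio was 2.54 to 3.91, and its best rank by total signal was 1 to 5.

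At Pisd-ps1 and beyond it the regions were narrower. The region at 3126870 to 3127736, inside the pseudogene, had maxima of 10, 13 and 9 for GATA4 and 14, 10 and 9 for GATA6. The region at 3128206 to 3128671, also in the pseudogene, had 13, 10 and 18, and 21, 9 and 11. The centres of its maxima ranged over 65 bp between libraries, and its maxima were lower than those of the pair of summits shown. The outermost, at 3123682 to 3124191, had 18, 5 and 11, and 16, 10 and 10. These ranked from 123 to 15039 by total signal, so the high ranks belonged to the gene body.

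**Figure D3:**
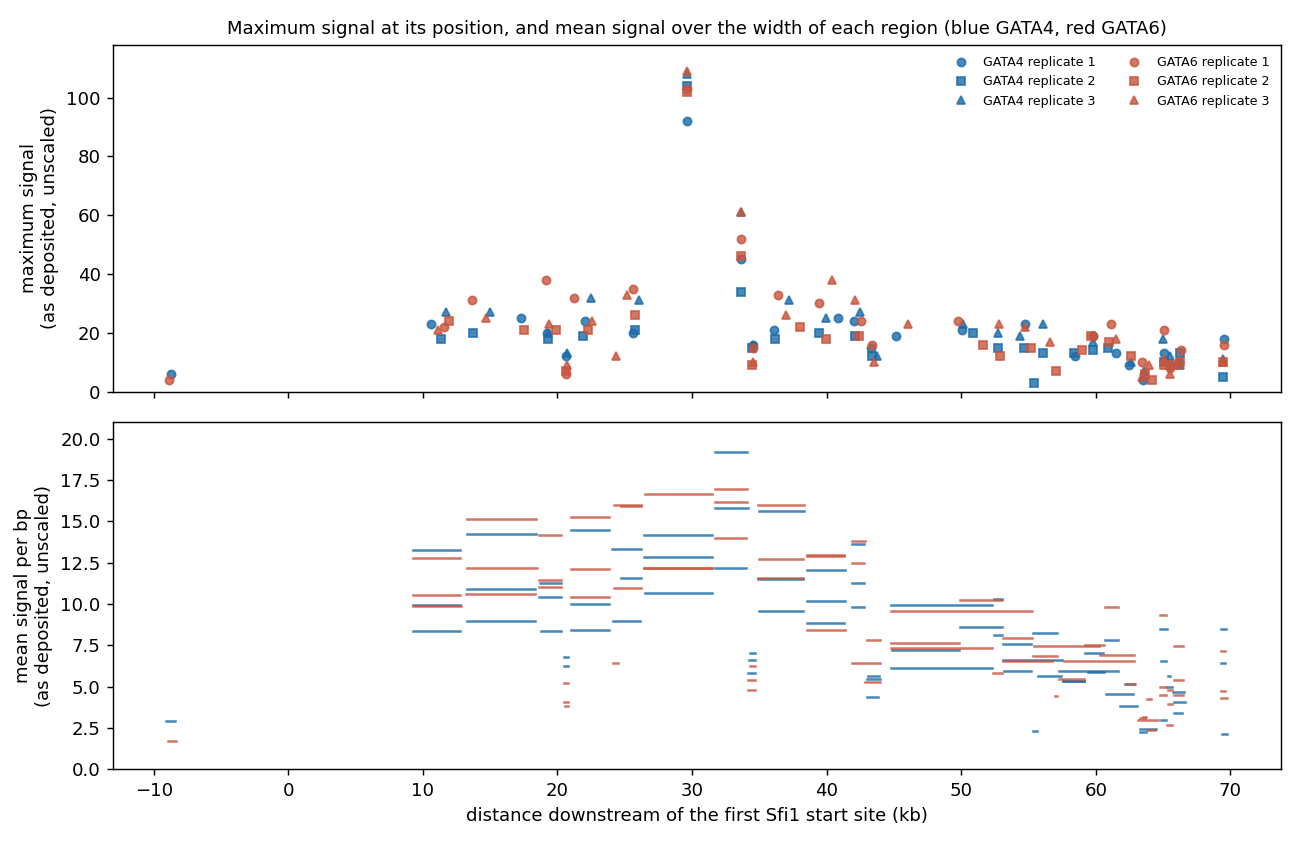
Upper panel, maximum signal of each region in the window (as deposited) at the position of its maximum, in kb downstream of the first Sfi1 start site, with 1 symbol per library; lower panel, mean signal per base pair drawn over the width of each region (blue GATA4, red GATA6). The highest maxima of all 6 libraries stack at a pair of positions, at 92 to 109 and at 34 to 61, and all other maxima are at 38 or below.

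Ends of regions were compared where each of the 6 libraries had a single region in a merged stretch, which was so for 10 stretches of the window and 2593 of all lists. None of the 10 had its 6 starts and its 6 ends each within 10 bp, beside 0.0386% of the 2593. The median range of the 6 starts was 59 bp in the window, from 11 to 169 bp, against 283 bp over all 2593, and that of the ends was 51.5 bp, from 21 to 142 bp, against 278 bp. For the region of the highest maximum the starts ranged over 11 bp and the ends over 26 bp. The 90 stretches elsewhere in the top 1% of total signal had median ranges of 356.5 and 278.5 bp. In these 10 stretches the ends were thus closer together between libraries than at the median stretch, although the regions were wider. Stretches split into more than 1 region in any library were not compared, among them the widest of the window, at 3130371 to 3148656. Positions of the maximum, taken as the centre of the interval of maximum signal, showed the opposite order. Their median range between libraries was 1017.5 bp in the window, from 30.5 to 3807 bp, and 108 bp over all 2593. The regions of the window were wider, and the part of width in this was not tested.

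Within the window libraries overlapped closely, whether of the same factor or of different factors. The Jaccard index, shared base pairs over all base pairs called in either library, was 0.923 ± 0.0125 (SD) for the 6 same-factor pairs and 0.929 ± 0.0183 for the 9 cross-factor pairs. The difference of -0.00627 was smaller in size than either SD (one-sided exact permutation test over the 10 divisions of the libraries, p = 0.9). A test over 10 divisions cannot give a p below 0.1, and regions covered most of the gene in every library. It therefore could not show a difference between factors, and no conclusion is drawn from it. Over the whole lists the index was 0.0808, from 0.0663 to 0.104 over the 15 pairs. The gene was chosen by total signal, which grows with width, so the higher overlap in the window is a description.

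Between factors, measures built on the signal are given as values with no test, since the gene was chosen by its signal. Regions of the window held 0.912%, 0.865% and 0.900% of the listed total signal in the GATA4 libraries and 1.07%, 1.08% and 1.09% in the GATA6 libraries, or 0.892% ± 0.0244 against 1.08% ± 0.0114 (SD, n = 3), a difference of -0.187 percentage points. The groups did not overlap. This share depends on the rest of each list, and the GATA4 lists were longer, at 48213 ± 1484 regions against 44490 ± 2019. The highest maximum over the list's median maximum, which was 4 in every list, was 25.3 ± 2.08 against 26.2 ± 0.946, and there the groups overlapped. Extent was tested with two-sided exact permutation tests over 3 against 3 libraries, which cannot give a p below 0.1. Covered length was 50585 ± 1708 bp against 51571 ± 1188 bp (exact permutation p = 0.6), and the number of regions 24.3 ± 1.53 against 24.3 ± 2.08 (exact permutation p = 1). Neither difference could have passed 0.05 in this design. The gene was also chosen by total signal, which grows with width, so no conclusion is drawn from these tests.

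The sequence under the regions was repeated elsewhere in the assembly. For each region of the combined lists, the share of its 50-base words, the length of a read, with another exact copy on either strand of the assembly was counted. All 16 GATA4 and all 18 GATA6 regions of the window had over 10% such words, beside 3.34% and 3.95% of the lists. The share was 23.7% to 100% in the GATA4 list, with a median of 50.1%, and 22.7% to 100% in the GATA6 list, with a median of 49.0%. The median over each whole list was 0. In the region of the highest maximum 53.5% of words were repeated. In the 151 bases shown for its summit this was 9.27%, whereas it was 100% in those of the next summit. So the pair of summits differed in whether a read there has another exact place in the assembly.

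**Figure D4:**
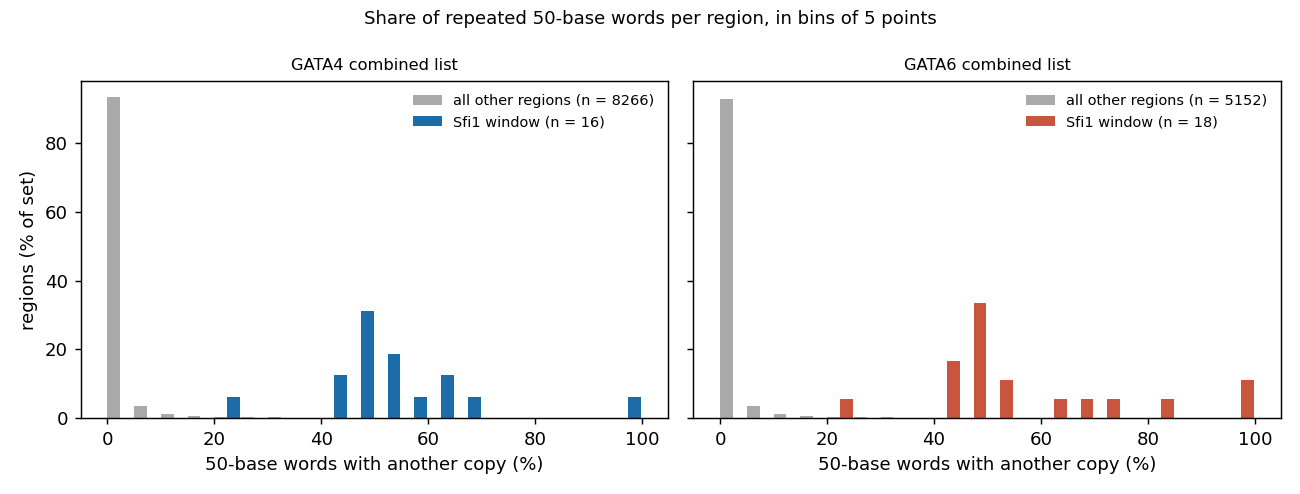
Share of regions (percent of each set) by the share of their 50-base words with another exact copy in the assembly, in bins of 5 percentage points, for the combined lists of GATA4 and GATA6. Regions of the Sfi1 window (coloured) start at 22.7%, whereas most other regions (grey) are in the lowest bin.

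Most of these copies were on a single unplaced scaffold of 114452 bp, on which RefSeq places Pisd-ps3, another phosphatidylserine decarboxylase pseudogene, at bases 52674 to 59689. Of the 101614 words of the window 37729 were repeated, and 29462 had a copy on this scaffold, whereas the next sequence, chromosome 17, held 7207. Aligned to the window, the scaffold matched chr11:3125320-3151671 over its bases 33219 to 59303 and chr11:3152147-3184327 over its bases 1 to 32788, both on the minus strand, at 98.6% and 98.5% identity. Words on a scaffold made up over 10% in 15 of the 16 GATA4 regions and 17 of the 18 GATA6 regions, beside 0.338% and 0.677% of the lists. The exception in both lists was the outermost region, past Pisd-ps1 and outside the aligned span.

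The called regions followed the span of this copy. Within its 59008 bp the regions covered 86.3%, 81.8% and 86.2% in the GATA4 libraries and 88.2%, 85.7% and 85.5% in the GATA6 libraries. On the side toward the chromosome start the cover was 2.48% to 3.08%, and past the copy 0% to 2.16%. In the 9136 bp of Sfi1 between the end of the copy and the gene's start site no library had a region. The first base of the scaffold aligned to 3184327, and the last called region of the stretch ended 138 to 168 bp before that base in the 6 libraries. Repeated sequence outside the aligned span did not carry regions throughout. In 3 adjacent bins of 1 kb centred 75.1, 76.1 and 77.1 kb downstream of the first start site, 88.7%, 92% and 69.9% of words were repeated. Words with a copy on a scaffold made up 56.3%, 67.4% and 49%. No library had a region there. Of the bases in these bins 91.6% to 100% were soft-masked, against at most 59.3% over a whole combined region of the window. On the scale of a bin, however, called sequence could be as masked. The bin centred 18.1 kb downstream was 94% masked, and its bases were called in a mean of 4.68 libraries. A scaffold that begins at its base 1 has no sequence beyond, so whether the copy itself goes on cannot be told from this assembly. No list held a region on a scaffold, only on the 21 chromosomes, and whether the authors aligned reads to the scaffolds is not given in the sources used here. The part of the copy in the signal was not tested, since reads that match both places could not be followed.

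Within the span, 45861 bp (77.7%) were called in all 6 libraries and 5406 bp (9.16%) in none, in 17 stretches of 21 to 1550 bp. Repeated words were about as frequent in both, at 55.6% and 53.0%. Words with over 10 copies made up 1.99% of the bases called in all libraries and 15.5% of those called in none. Bases soft-masked as repeats in the reference made up 31.1% and 45.0%. Exons took 12.8% of the bases called in all libraries and 0% of those called in none. These words were unevenly spread, since 11 of the 17 stretches held none and 2 held 698 of the 836 such words.

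Soft-masked repeats did not mark the regions as the exact words did. Over 50% of the sequence was soft-masked in 1 of 16 GATA4 and 3 of 18 GATA6 regions, beside 2.11% and 2.4% of the lists. The median masked share was 29.8% and 25.3% in the window against 9.23% and 8.36% over the lists. GC content had a median of 46.5% and 46.4%, against 51.6% and 53.1%.

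The start sites of Sfi1 were outside the regions. Its 8 coding transcripts start between 3187355 and 3193463, and no library had a region over any of these starts. The nearest edge of a region in any library was 3166 to 8416 bp from them. Another 8 transcripts, all non-coding, start inside the copied span, and their starts lay in regions of all 6 libraries for 7 and of 4 libraries for the last. These 8 starts lie where nearly everything was called, so their cover says nothing particular to starts.

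WGATAR words were sought within 100 bp of the centre of the interval of maximum signal of each region. In some regions of the window this interval was wide, as at 3177472 to 3179503 in GATA4 replicate 3, so only part of it was searched. In 5 of the 6 libraries the words were less frequent there in the window than over the list. Of the regions of the GATA4 lists 42.8%, 43.8% and 41.8% held the motif. In the window 12 of 26, 8 of 23 and 3 of 24 did (46.2%, 34.8% and 12.5%). In the GATA6 libraries 8 of 22, 4 of 26 and 5 of 25 did (36.4%, 15.4% and 20%), beside 37.9%, 38.1% and 37.6%. The exception was GATA4 replicate 1. Per kb of called sequence the window had 1.50 motifs in the GATA4 combined list and 1.44 in the GATA6 list, against 2.52 and 2.23 in the rest of the lists. The part of Sfi1 with no region had 2.41 per kb. A match or its absence describes the letters and not occupancy.

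Among the neighbours, Pisd-ps1 had 5, 3 and 5 regions in the GATA4 libraries and 5, 6 and 6 in the GATA6 libraries. Gm11399, an antisense gene inside Sfi1, had 1 region in each library, and the pseudogene Gm11400, also inside it, had 1 or 2. These regions are those of Sfi1 and cannot be assigned to either gene. Gm12735 and Fau-ps2, just past the start of Sfi1, had none. Drg1, encoding a GTPase and overlapping the 5′ end of Sfi1, had 2, 1 and 2 regions for GATA4 and 4, 0 and 2 for GATA6. Eif4enif1 had 2, 0 and 0, and 3, 0 and 1, and Patz1, encoding a zinc finger regulator, 3, 1 and 2, and 2, 1 and 1. No region over Drg1 or Eif4enif1 was in a combined list.

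The genes most like Sfi1 were those whose own highest region had the highest mean percentile of total signal over the 6 lists. After Sfi1, at 100, came Gm11399 inside it at 99.99, then Cldn34d, a claudin-like gene on the X chromosome, at 99.97 and Lars2, the mitochondrial leucyl-tRNA synthetase gene on chromosome 9, at 99.96. Ranked by region instead, the highest outside the window in the GATA4 combined list were nearest to Pak3 (35288 bp away), Gm28438 and Lars2, and in the GATA6 list to Pak3, Cldn34d and Lars2. Their repeated words made up 15.6%, 0% and 26.5% in the GATA4 list and 0.413%, 3.11% and 15.5% in the GATA6 list. High total signal elsewhere thus came with and without words repeated on the chromosomes and scaffolds searched. The mitochondrial sequence was not searched, so a share of 0% does not exclude copies there. None of these regions had words on a scaffold.

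Outside the window, regions with over 10% of words on a scaffold numbered 13 in the GATA4 combined list and 18 in the GATA6 list. The highest of them by total signal lay in Pisd-ps2, a further copy of the pseudogene on chromosome 17, at mean percentiles of 99.57 and 99.92. Sp110, a nuclear body gene on chromosome 1, was at 98.8 and 99.1 and Apool, a mitochondrial gene on the X chromosome, at 98.4 and 99.8. Together with a region at Gm10718 at the start of chromosome 9, at 98.90 and 99.04, these had the highest shares of such words outside the window, 49.3% or more. Over all 13 and all 18 the medians were 89.1 and 81.9, beside 85.0 and 83.5 for the regions outside the window with at most 10% of words repeated.

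Of 20 other centriole and centrosome genes, 10 (50%) had a GATA4 combined region in the gene or within 20 kb and 7 (35%) a GATA6 region, beside 38.7% and 29.4% of all 21951 protein-coding genes. Cenpj, a centriole elongation factor, had 2 in each list, Tubg1, encoding γ-tubulin, had 1 in each, and Plk4, the kinase that starts centriole duplication, had 1 in the GATA4 list alone. The centrins Cetn1 to Cetn4 had none. The best region at any of the 20 ranked 274 by total signal, at Cenpj in GATA6 replicate 3. Of 15 loci listed for multiple copies in the assembly 13 were in the annotation, and 9 of these (69.2%) had regions in both lists. The 9 included Pisd-ps1, through the regions of Sfi1, and Mid1. The other 7 were neighbouring Gm genes at the start of chromosome 9 that share regions, whose best rank was 235 to 2861. The 9 were thus not separate loci, so their share cannot be set against the 38.7% and 29.4% of protein-coding genes.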

How the data were processed

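CUT&RUN libraries of 3F2 XEN cells, 3 per antibody, had been sequenced with paired 50-base reads, per the labels. The authors aligned reads to mm10 with Bowtie2 2.3.4.1, removed those of low mapping quality, duplicates, mitochondrial reads and blacklisted regions (which blacklist is not given in the sources used here) and called regions with SEACR 1.3. The deposited total and maximum signal of each region are unscaled coverage, and read depth per library is unknown. The stringency of the caller is stated differently in the methods and in the deposited lists, the methods name 2 lines and 2 replicates where the labels give 1 genotype and 3 replicates, and the combined lists hold positions alone.

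Regions touching Sfi1 (GENCODE M21) or the 20 kb on either side were taken, and positions are given 1-based. Exact 50-base words, with 36 and 100 as alternatives, were counted on both strands of the primary GRCm38 assembly with its 44 unplaced or unlocalised scaffolds, by a script tested on simulated data. Copies in the mitochondrial sequence were not counted. The scaffold was aligned with minimap2 2.31 (asm20 preset). Neighbouring genes within 100 kb were named, stretches of the window called in all 6 libraries are given by library or by range, and other genes by fixed lists or by rank of total signal. The gene, the lists and the tests were chosen with earlier results of these data known. Tests were exact permutations over libraries, enumerated in Python 3.11.15 with numpy 2.4.6. Those planned for the share of signal and the highest maximum are not reported, since the gene was chosen by its signal.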

Additional observations from a re-analysis of the deposited data

How the results depend on the processing

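Of 65 alternatives to the values above, 60 kept direction and side of the threshold or moved within the spread. For the tests the side could not change, since none can give a p below 0.1, which lies above the threshold. Some of the 60 were also fixed by construction, such as the replicate blocks for differences of means. The count is therefore a tally and not a measure of robustness. By maximum signal in place of total signal a mean of 1.67 regions of the window were in the top 10 of a list, and by mean signal per base pair 0, against 9.83 by total signal. With 100-base words the repeated share of the called sequence was 28.7%, against 53.9% with 50-base words, since longer words are less often repeated exactly. Leaving out 1 library at a time, the difference in share of signal ranged from -0.196 to -0.173, and in covered length from -1647 to -21.8 bp. The number of regions differed by -1.17 to 0.833 and the overlap by -0.0116 to 0.00657, the last without GATA4 replicate 3. The ratio of the highest maximum differed by -1.67 to 0.333, the last without GATA4 replicate 1. Over the 99th percentile of the list's maxima in place of the median it differed by -1.79, and the groups then did not overlap. The difference in share was -0.327 points when chromosomes 8, 14 and 19, where regions are dense, were left out of the denominator. Pairing same-numbered libraries in a replicate block cannot change a difference of means. The differences in share, ratio, covered length and regions thus stayed at -0.187 points, -0.833, -986 bp and 0. For overlap, which is built on pairs of libraries, the block gave -0.00489. The deviations of same-numbered libraries correlated at 0.150, -0.0825 and -0.149 over the window. These values showed no pairing by number, but whether same-numbered libraries were prepared together cannot be told from them. Read depth is unknown, which limits all comparisons to ranks and ratios within a list.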
